A study of Mus musculus with 14 samples.

Results

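Messenger RNA of the BMP ligands and BMP antagonists was compared between the ventral and dorsal surface of the fetal mouse heart. The genes were taken by name from the deposited table: 9 symbols were sought and 6 were listed among 15894 genes. These were the ligands Bmp2, Bmp4, Bmp5, Bmp6 and Bmp7 and the extracellular modulator Bmper. Bmp10, Grem1 and Nog were not listed in the table used here and were dropped. So 5 of 6 ligands and 1 of 3 antagonists could be described.

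The tissue was the epicardium with the layer just under it, dissected from late fetal (E16.5) hearts in order to compare dorsal with ventral regions and males with females. Each of the 14 libraries held polyA RNA of 2 pooled hearts. There were 3 female ventral and 3 female dorsal libraries (pools 1 to 3), 4 male ventral libraries (pools 4 to 7) and 3 male dorsal libraries (pools 4 to 6). The male library of pool 7 that is called dorsal in its title carries the ventral region in its tissue field, so it entered no main test and its values are given apart. All hearts were untreated and carried Tbx18Cre in the sample labels (the Cre recombinase placed under the control of an epicardial transcription factor gene), while the series design calls the hearts wild type. Sex and the run of pool numbers coincide completely, so a difference between the sexes and one between the pool series cannot be told apart.

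BMPs are secreted ligands of the TGF-beta superfamily. They act as dimers on a pair of type I and type II serine/threonine kinase receptors, whose activity phosphorylates SMAD1, SMAD5 and SMAD9. These join SMAD4 and raise targets such as the Id genes. Extracellular antagonists such as chordin hold the ligand away from its receptors, and tolloid proteases cleave chordin and set the ligand free. In the heart BMPs are known for roles in the formation of the proepicardium, in valve and septum development and in epicardial cells that leave the surface.

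Values are normalized CPM, the reads of a gene relative to the size of its library after the authors' scaling between libraries. Library depth ran from 13.9 to 25.2 M reads. At the shallowest depth 3 reads equal 0.253 CPM, and no member was at or below 3 reads in any library. The fewest reads behind a member's value were 9, for Bmp2. The dissected layer was checked against lists of marker genes. The epicardial transcription factors Wt1 and Tbx18 were present in all 14 libraries, at 26.4 to 216 CPM and 19.5 to 98.7 CPM. Myl2, a myosin light chain of ventricular cardiomyocytes, was present at 1259 to 3109 CPM, so the libraries held heart muscle RNA too, and none of the lung epithelium markers was listed. Summed over the 10 epicardial markers, the level was 281 to 633 CPM in female dorsal, 1737 to 2826 in female ventral, 1600 to 4311 in male dorsal and 1986 to 6080 in male ventral libraries. The female dorsal libraries thus stood apart from the other 3 groups in their epicardial signal. Male ventral 7 stood apart in a different way, with the lowest summed blood endothelium level (95.2 CPM) and the highest erythroid one (291 CPM).

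Across the 14 libraries Bmp4 and Bmp7 were the predominant ligands. Per kilobase of exon, the median level was 24.2 CPM for Bmp4 and 12.4 for Bmp7, followed by 3.21 for Bmp6, 1.12 for Bmper, 1.10 for Bmp5 and 0.683 for Bmp2. Bmp4 ranked first in 10 libraries and Bmp7 in the other 4. Bmp6 came next after these in 11 libraries. Below it the order was not stable: the per-kilobase ranges of Bmper (0.294 to 3.41), Bmp5 (0.421 to 2.10) and Bmp2 (0.145 to 6.93) overlapped widely. The ratio of the highest to the lowest library was smallest for Bmp7, at 3.23, and largest for Bmp2, at 47.6. It was 4.97 for Bmp5, 11.2 for Bmp4, 11.6 for Bmper and 13.1 for Bmp6.

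Ventral libraries held more Bmp6 and Bmp4 and less Bmp5 than dorsal libraries in the female pools. These 3 of the 6 members passed the test there (limma, Benjamini-Hochberg adjustment over all 14411 genes tested, threshold of 0.05), against 27.8% of all genes. By direction, 14.5% of all genes were called higher ventrally, where 2 members fell, and 13.3% higher dorsally, where 1 did. In the male pools no member was called, and neither was any other of the 14917 genes tested. With both sexes in a single fit the same 3 members were called, Bmp6 and Bmp4 higher ventrally (9.80% of all genes were) and Bmp5 higher dorsally (9.06% were), against 18.9% of all 15772 genes in either direction. The balance of directions over all genes, 1545 higher and 1429 lower ventrally, became 1044 and 1794 once a trend with GC content and gene length was removed, while the 3 members kept theirs. In bulk samples fewer cells of a type and less RNA per cell cannot be told apart, which holds for every level given here.

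**Figure D1:**
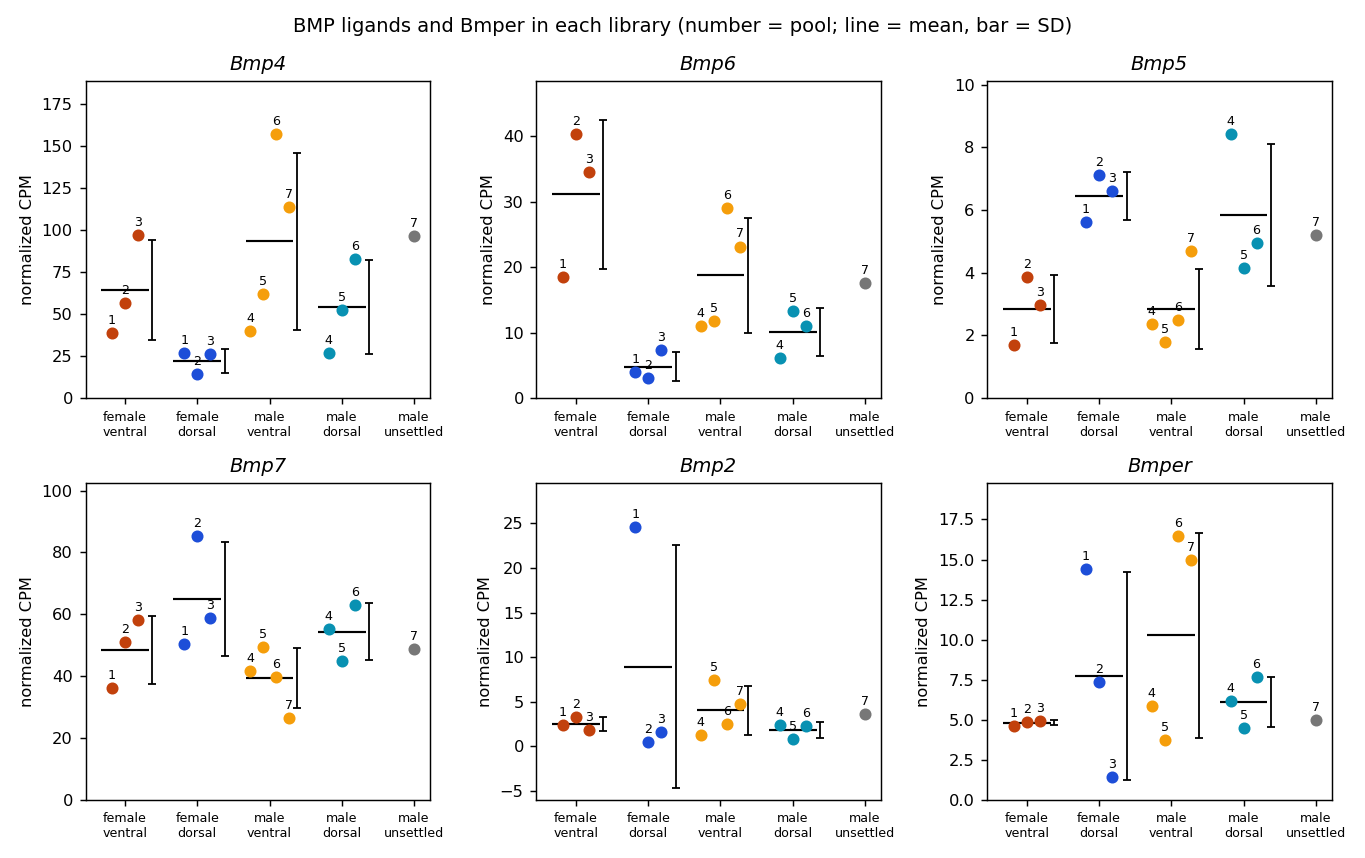
Normalized CPM of the 6 listed genes (vertical axes, linear, a scale of its own for each gene) in each library, grouped by sex and region; each point is a library marked with its pool number, the line is the group mean and the bar its standard deviation. For Bmp6 the female ventral points (18.4 to 40.4) lie above all female dorsal points (3.08 to 7.31), while the male groups overlap, and a single female dorsal library carries the high value of Bmp2 (24.6).

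The promoters of the 3 genes that passed the test are shown because members that moved in opposite directions can be set side by side there. Each is RefSeq sequence of build GRCm38.p6, from 250 bases before to 50 bases after the annotated start, written 5′ to 3′ on the gene's strand. Capitals mark every CG pair, the dinucleotide that accumulates in CpG islands. The Bmp4 window is chr14:46390620-46390919 on the minus strand, the Bmp6 window chr13:38345466-38345765 on the plus strand and the Bmp5 window chr9:75775115-75775414 on the plus strand. The whole Bmp6 window lies downstream of the gene start given below (38345107), which comes from another annotation.
Bmp4: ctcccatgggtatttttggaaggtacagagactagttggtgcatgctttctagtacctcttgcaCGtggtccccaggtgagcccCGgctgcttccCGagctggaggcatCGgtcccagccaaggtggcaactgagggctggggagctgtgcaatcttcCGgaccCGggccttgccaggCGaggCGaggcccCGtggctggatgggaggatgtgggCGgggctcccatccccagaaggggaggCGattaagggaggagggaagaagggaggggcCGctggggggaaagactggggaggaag
Bmp6: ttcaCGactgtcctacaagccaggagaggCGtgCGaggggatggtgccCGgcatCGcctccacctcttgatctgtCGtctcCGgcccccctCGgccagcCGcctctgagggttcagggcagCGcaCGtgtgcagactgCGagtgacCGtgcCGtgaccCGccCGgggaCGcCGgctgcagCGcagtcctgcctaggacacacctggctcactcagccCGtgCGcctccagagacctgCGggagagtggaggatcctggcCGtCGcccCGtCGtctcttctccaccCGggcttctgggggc
Bmp5: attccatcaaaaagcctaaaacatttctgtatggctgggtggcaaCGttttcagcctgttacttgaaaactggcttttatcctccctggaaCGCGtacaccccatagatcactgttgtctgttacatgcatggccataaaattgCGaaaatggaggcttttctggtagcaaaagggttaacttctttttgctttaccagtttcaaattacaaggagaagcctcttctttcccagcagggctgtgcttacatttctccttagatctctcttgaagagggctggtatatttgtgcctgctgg
The Bmp5 window held 4 CG pairs and 43.3% G or C, the Bmp4 window 12 pairs and 64.0%, and the Bmp6 window 27 pairs and 69.3%. Over all 14532 mouse promoter windows of this length the median was 19 pairs and 60.3% G or C, and 11.6% of them held as few CG pairs as Bmp5 or fewer. The window of Bmper, whose regional change was not called, held 31 pairs. On both strands 5 motifs were searched: the SMAD motif GGCGCC, the T-box core GGTGTGA, the WT1/EGR motif GCGGGGGCG, the TEAD motif GGAATG and the TATA box TATAAA. None of them occurred in these 4 windows. They occur in 19.98%, 3.42%, 5.17%, 12.6% and 7.68% of all windows, in that order. Promoter windows matched 4 of the 6 members.

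Bmp6, a ligand that can signal through ACVR1 and is best known for raising hepcidin in iron balance, had the largest regional change. The gene lies on GRCm38 chromosome 13, 38345107 to 38500302, plus strand. In the female pools 1, 2 and 3 its level was 18.4, 40.4 and 34.6 CPM ventrally and 3.99, 3.08 and 7.31 CPM dorsally. The groups did not overlap. The mean was 31.1 ± 11.4 against 4.79 ± 2.23 CPM (SD, n = 3 and 3), and the change was 2.47 on the scale of log2(CPM + 1), with a standard error of 0.36 and an adjusted p of 0.00181 from limma. In the male pools 4, 5, 6 and 7 the ventral level was 11.0, 11.8, 29.1 and 23.2 CPM, and in pools 4, 5 and 6 the dorsal level was 6.10, 13.3 and 11.1 CPM. The male groups overlapped, because the dorsal library of pool 5 was above 2 of the ventral libraries. The male change was 0.77 with a standard error of 0.39 and an adjusted p of 0.398 from limma. In pairs of the same pool the ventral library was higher in 3 of 3 female and 2 of 3 male pools. Over both sexes the change was 1.56 with a standard error of 0.35 and an adjusted p of 0.0116 from limma.

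Female dorsal libraries had the lowest mean Bmp6 of all 4 groups and female ventral libraries the highest mean. The regional change was smaller in males, by -1.696 on the log2 scale (standard error 0.57). That difference had an unadjusted p of 0.0101 and an adjusted p of 0.152 in limma, where 2.73% of all 15772 genes were called. With the pool number as a block the difference was -1.83 and its adjusted p was 0.0403 in limma. With the block in edgeR's quasi-likelihood test on the reads it was -2.01, with an adjusted p of 0.0579. The call of a sex difference in the Bmp6 change therefore depended on the pairing and on the tool.

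Bmp4, a ligand with known roles in mesoderm and outflow tract development, changed in the same direction. It lies on chromosome 14, 46383520 to 46390669, minus strand. Its female ventral levels in pools 1 to 3 were 39.0, 56.6 and 97.3 CPM and its female dorsal levels 26.5, 14.1 and 26.4 CPM. Every female ventral library was above every female dorsal one, and pool 1 had the smallest gap. The mean was 64.3 ± 29.9 against 22.3 ± 7.15 CPM (SD, n = 3 and 3), a change of 1.44 on the log2 scale with a standard error of 0.34 and an adjusted p of 0.0125 from limma. The male ventral levels in pools 4 to 7 were 40.0, 62.2, 157 and 114 CPM and the male dorsal levels in pools 4 to 6 were 27.0, 52.1 and 83.0 CPM. The male groups overlapped when taken as groups, although within each of the 3 male pools the ventral library was the higher one, as it was in all 3 female pools. The male change was 0.73 with a standard error of 0.47 and an adjusted p of 0.494 from limma.

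Over both sexes Bmp4 was higher ventrally by 1.06 (standard error 0.34, adjusted p of 0.0398 from limma). That call was lost when any of 8 libraries was left out, with adjusted p values up to 0.0970. These were female dorsal 1, 2 and 3, female ventral 2 and 3, male dorsal 4 and male ventral 6 and 7. The female call, by contrast, held under all 18 alternatives, with adjusted p values from 0.00273 to 0.0449 in the limma, voom and edgeR fits.

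Markers of the epicardium and of fibroblasts moved with Bmp4 and Bmp6. In the female pools 10 of 10 epicardial markers and 5 of 8 fibroblast markers were called higher ventrally, beside 14.5% of all genes. The summed fibroblast level was 2904 to 4547 CPM in female dorsal and 11545 to 22103 CPM in female ventral libraries, and in males it was 7251 to 12566 CPM dorsally and 10925 to 25417 CPM ventrally. Markers of macrophages (5 of 6) and of lymphatic endothelium (5 of 7 rows) were also called higher ventrally in females, and no marker of blood endothelium was. No defining marker of the epicardium was at 0 in any library. The order of the libraries differed between the epicardial and the fibroblast sum. Male dorsal 6 had an epicardial sum of 4311 CPM and a fibroblast sum of 12566 CPM, with 11.1 CPM of Bmp6. Female ventral 2 had an epicardial sum of 2826 CPM and a fibroblast sum of 20074 CPM, with 40.4 CPM of Bmp6. The part of these cell types in the regional change of Bmp4 and Bmp6 was not tested.

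**Figure D2:**
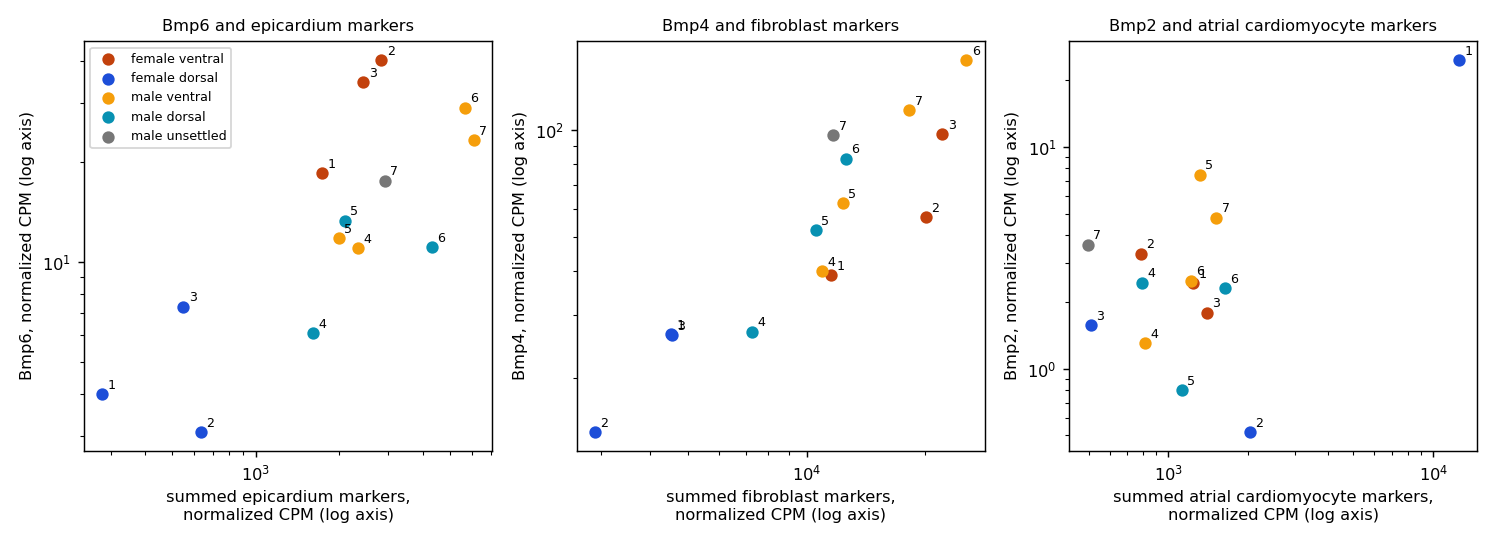
Each point is a library, coloured by group and marked with its pool number; the panels set Bmp6 against the summed epicardial markers, Bmp4 against the summed fibroblast markers and Bmp2 against the summed atrial cardiomyocyte markers, all in normalized CPM on log axes. The female dorsal libraries lie at the lower left in the first 2 panels (epicardial sum 281 to 633), and female dorsal 1 lies alone at the upper right in the panel of Bmp2 (atrial sum 12504).

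The genes whose level followed a member most closely were named by Pearson's r of log2(CPM + 1) over the 14 libraries, searched among 11335 genes with a mean of at least 5 CPM. For Bmp6 these were Col1a2, the second chain of type I collagen, at r = 0.972, and Zbtb4, a zinc finger factor, at 0.970. For Bmp4 they were Fbln5, a fibulin of elastic fibres, at 0.973 and Gria3, a glutamate receptor subunit, at 0.972. The coefficients for Bmp7 were lower, 0.880 with Mrm3 and 0.876 with Hibch. For Bmper the closest were Baiap2l1 at 0.841 and Ufsp2 at 0.785. The points share depth, dissection and group structure, and the coefficients are a description.

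Bmp5, a ligand closely related to Bmp6 and Bmp7, went the other way. It lies on chromosome 9, 75775364 to 75900310, plus strand. Its female ventral levels in pools 1 to 3 were 1.696, 3.87 and 2.96 CPM and its female dorsal levels 5.61, 7.11 and 6.61 CPM. All dorsal libraries were above all ventral ones. The change was -0.99 on the log2 scale with a standard error of 0.32 and an adjusted p of 0.0445 from limma. In the male pools the ventral levels were 2.38, 1.78, 2.49 and 4.70 CPM and the dorsal levels 8.43, 4.16 and 4.95 CPM. Only the ventral library of pool 7 reached into the dorsal range, and the male change was -0.84 with a standard error of 0.36 and an adjusted p of 0.346 from limma.

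The dorsal library was the higher one for Bmp5 in all 3 female and all 3 male pools. Over both sexes the change was -0.91, with a standard error of 0.24 and an adjusted p of 0.0187 from limma. It remained called under all 26 alternatives. The female call alone was lost in 12 of 17 alternatives. It was lost when any 1 of the 6 libraries was left out, with adjusted p values from 0.0503 to 0.134, and in other settings that kept all libraries. Of the 60-base windows in the transcripts of Bmp5, 45.9% are shared with other genes, most often with Gm26903, an overlapping gene that is not listed. The reads of Bmp5 therefore cannot be told apart from those of such genes with certainty. Smooth muscle markers moved in the direction of Bmp5 in females, where 3 of 6 were called higher dorsally and 1 ventrally, beside 13.3% and 14.5% of all genes. Their summed level was 1070 to 1397 CPM in female dorsal and 716 to 1156 CPM in female ventral libraries, and 1120 to 1498 CPM in male dorsal and 562 to 1428.5 CPM in male ventral libraries. Myh11, the smooth muscle myosin, was at 3 reads or fewer in 3 of the 14 libraries. Ventricular cardiomyocyte markers were lower ventrally in 9 of 10 in each sex, with 0 called lower and 1 called higher in females. Their sum was 23207.5 to 34868 CPM in female dorsal and 18385 to 26610 CPM in female ventral libraries. In males it was 27627 to 36405 CPM dorsally and 13339 to 27216 CPM ventrally, without overlap. Atrial markers were lower ventrally in 6 of 6 in females (1 called) and 3 of 6 in males. The part of smooth or heart muscle in the Bmp5 change was not tested.

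**Figure D3:**
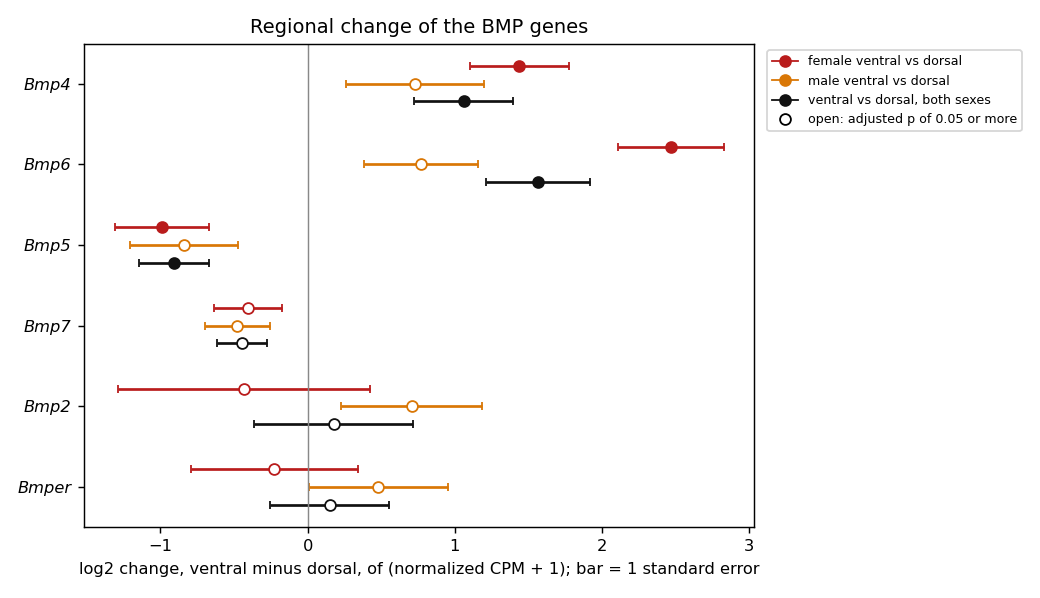
Log2 change between ventral and dorsal libraries of log2(normalized CPM + 1) for each of the 6 genes (horizontal axis, positive is higher ventrally), for the female pools, the male pools and all assigned pools; bars are 1 standard error and filled points have an adjusted p under 0.05 in limma. Bmp4 and Bmp6 lie to the right of 0 and Bmp5 and Bmp7 to the left in all 3 comparisons.

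Bmp7, which forms dimers with Bmp2 and Bmp4 and is known for kidney and eye development, was the steadiest member. It lies on chromosome 2, 172868012 to 172940321, minus strand. Its levels were 36.2, 51.2 and 58.0 CPM in female ventral and 50.3, 85.5 and 58.9 CPM in female dorsal libraries. They were 41.7, 49.6, 39.8 and 26.5 CPM in male ventral and 55.4, 44.8 and 63.1 CPM in male dorsal libraries. The groups overlapped in both sexes, and within pools the dorsal library was higher in 3 of 3 female and 2 of 3 male pools. The change was -0.41 (standard error 0.23, adjusted p of 0.217) in females and -0.48 (standard error 0.22, adjusted p of 0.373) in males in limma. Over both sexes it was -0.44, with a standard error of 0.17 and an adjusted p of 0.0777 in limma. That value fell under the threshold when a trend with GC content and gene length was removed (0.0360) and when male ventral 5 was left out (0.0474).

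Bmp2, a close relative of Bmp4 that is known for endocardial cushion formation, was the least abundant member. It lies on chromosome 2, 133552159 to 133562885, plus strand. Female ventral libraries held 2.43, 3.29 and 1.79 CPM and female dorsal libraries 24.6, 0.517 and 1.57 CPM. Male ventral libraries held 1.304, 7.47, 2.49 and 4.79 CPM and male dorsal libraries 2.43, 0.800 and 2.30 CPM. Female dorsal 1 was above every other library, and the groups overlapped. The female change was -0.43 with a standard error of 0.86 and an adjusted p of 0.740 in limma, and it was 0.80 without female dorsal 1. In that library the 6 atrial cardiomyocyte markers summed to 12504 CPM, against 496 to 2029 CPM in the other 13. Nppa, the atrial natriuretic peptide, ranged from 28.0 to 2775 CPM over the 14 libraries. The part of atrial tissue in the Bmp2 level was not tested.

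Bmper, a secreted protein with chordin-like domains that can both hinder and promote BMP signalling, was the single listed member of the antagonists. It lies on chromosome 9, 23223076 to 23485200, plus strand. Its levels were 4.62, 4.88 and 4.90 CPM in female ventral libraries and 14.4, 7.38 and 1.42 CPM in female dorsal libraries. The ventral libraries were nearly equal and lay inside the dorsal range. Male ventral libraries held 5.86, 3.71, 16.5 and 15.0 CPM and male dorsal libraries 6.17, 4.49 and 7.66 CPM, again with overlap. The change was -0.23 (standard error 0.57, adjusted p of 0.795) in females and 0.48 (standard error 0.47, adjusted p of 0.655) in males in limma. The female value was 0.36 without female dorsal 1, the library with the high atrial sum.

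By separation alone, 3 of 6 members had female groups that did not overlap, against 44.8% of all genes tested. In males 0 of 6 did, where 6.18% of all genes had every ventral library above every dorsal one and 7.82% the reverse. In the male comparison limma called 0 of 14917 genes (0%), of which 2083 had an unadjusted p under 0.05. The edgeR test on the reads also called 0, with 1802 genes under an unadjusted p of 0.05. Of the 6 members, Bmp5 was among these in limma, at 0.0438.

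Between the sexes, with region in the fit, no member was called, against 10.9% of all genes. Bmp4 had the largest difference, 0.77 higher in males with a standard error of 0.34, an unadjusted p of 0.0360 and an adjusted p of 0.160 from limma. Its male means were 93.3 ± 52.7 CPM ventrally (SD, n = 4) and 54.0 ± 28.1 CPM dorsally (SD, n = 3). The values for the other members were 0.42 for Bmper, 0.05 for Bmp6, -0.08 for Bmp5, -0.16 for Bmp2 and -0.27 for Bmp7, with standard errors from 0.17 to 0.54.

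The library of unsettled region held 96.6 CPM of Bmp4, 48.8 of Bmp7, 17.5 of Bmp6, 5.19 of Bmp5, 4.96 of Bmper and 3.61 of Bmp2. Its Bmp4 and Bmp6 lay above all 3 male dorsal libraries and inside the male ventral range. Its Bmp5 lay inside the male dorsal range and above all 4 male ventral libraries. Taken as dorsal, it changed the Bmp4 value over both sexes to 0.89 with an adjusted p of 0.0770 in limma, which ended that call.

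The rest of the pathway was read from 6 lists of 51 genes, of which 44 were listed. In females 11 of the 40 tested were called higher ventrally and 3 lower, 35.0% in all, beside 27.8% of all genes. The 11 include Chrd, which was tested through its ventral libraries alone. They also include Gdf6 and Bmpr1b, for which the ventral libraries alone sufficed and some dorsal libraries were under the filter value. The median change of the 40 tested was 0.45, beside 0.01 over all genes. In males 0 of 42 were called, as were 0 of all 14917 genes tested. With the pool number as a block 15 were called in females, 13 of them among these 14, beside 4265 of all 14411 genes. In males the block called 1, beside 76 of all 14917 genes. The 15 include Chrd and also Bmp3, which was at most 0.901 CPM in female dorsal libraries. Bmp3 too passed the filter through its ventral libraries alone, so these 2 female calls are a description and not a test. The same holds for the female calls of Gdf6 and Bmpr1b. Over both sexes 9 of 44 were called higher ventrally and 2 lower, beside 18.9% of all genes (9.80% higher and 9.06% lower).

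Other BMP-class ligands were sparse: 4 of 7 were listed and 1 of the 3 tested in females was called, beside 27.8% of all genes. This was Gdf6, a growth differentiation factor of joint and eye development, at 3.26, 6.25 and 6.77 CPM ventrally and 0.716, 0.953 and 3.22 CPM dorsally. The female groups did not overlap, and the change was 1.36 with a standard error of 0.42 and an adjusted p of 0.0381 in limma. Female dorsal 1 and 2 lay under the filter value of 1, and the ventral libraries alone sufficed to pass the filter. The female call of Gdf6 is therefore a description and not a test. That call was lost in 5 of 9 alternatives (adjusted p up to 0.120), in edgeR and without female dorsal 1 or 2 or female ventral 2 or 3. Over both sexes it was 1.26 with an adjusted p of 0.0204 in limma, which rose to 0.0523 without female dorsal 2.

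Other extracellular modulators, a list that holds antagonists and also proteins that can promote BMP signalling, had 9 genes tested in females. Of these 4 were called higher ventrally, Chrd among them, and none lower, beside 14.5% and 13.3% of all genes. Chrd, which encodes chordin, was at 5.19, 10.1 and 5.02 CPM ventrally and at 0.254, 0.2995 and 0.824 CPM dorsally, the last from 5, 5 and 16 reads. It passed the filter on low values through the ventral libraries alone, so its female difference is given as a description and not as a test. Crim1, a transmembrane protein that binds BMPs, was at 26.8, 36.7 and 45.8 CPM ventrally and at 8.29, 6.72 and 9.76 CPM dorsally, a change of 1.998 with an adjusted p of 0.00087 in limma. Chrdl1, a chordin-like antagonist, rose by 1.69 (adjusted p of 0.0193 in limma), a call lost without female dorsal 1, female ventral 2 or female ventral 3 (adjusted p up to 0.0803). Nbl1, a DAN family antagonist, rose by 1.05 (adjusted p of 0.0447 in limma). The Nbl1 call was lost in 6 of 9 alternatives (adjusted p up to 0.166), namely in edgeR, with the GC and length trend removed and without female dorsal 1 or 2 or female ventral 2 or 3.

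In the male pools Chrd was at 4.83, 3.47, 10.03 and 17.2 CPM ventrally and at 4.37, 2.32 and 5.38 CPM dorsally, and the groups overlapped. The female dorsal libraries were the only ones under 1 CPM of Chrd. Crim1 was the single pathway gene whose regional change differed between the sexes, by -1.54 with a standard error of 0.33 and an adjusted p of 0.0187 in limma. Its male levels were 20.02, 18.8, 25.1 and 17.8 CPM ventrally and 11.8, 15.5 and 16.6 CPM dorsally. That call was lost without female dorsal 2, female ventral 2 or female ventral 3, with adjusted p values up to 0.0597. With the pool number as a block Chrd was called in addition, at -1.93 with an adjusted p of 0.0440 in limma. Fstl3, a follistatin-like protein that binds activins and some BMPs, was called over both sexes (0.59, adjusted p of 0.0223 in limma). That call was lost without female ventral 2 and with the GC and length trend removed (adjusted p up to 0.0755). Of the 60-base windows of Fstl3, 46.0% are shared with other genes, most often with Prss57.

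Bmp1, a tolloid protease that cleaves chordin and also trims procollagens, was called higher ventrally in females. It was at 56.9, 89.0 and 67.8 CPM in female ventral and 27.2, 23.6 and 30.8 CPM in female dorsal libraries, with no overlap. Male ventral libraries held 64.9, 48.8, 70.2 and 73.2 CPM and male dorsal libraries 38.1, 47.7 and 42.9 CPM, again with no overlap. The change was 1.34 in females (adjusted p of 0.0017 in limma) and 0.93 over both sexes (adjusted p of 0.00685 in limma). In males it was 0.56, with an unadjusted p of 0.0103 and an adjusted p of 0.288 in limma. The call was kept in all 9 alternatives run for pathway genes in females and in all 16 over both sexes.

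Of the 10 receptors and co-receptors, 3 were called higher and 1 lower in female ventral libraries, beside 14.5% and 13.3% of all genes. Bmpr1a, the widely used type I receptor for BMP2 and BMP4, was at 88.9, 123 and 125 CPM ventrally and 64.7, 65.9 and 51.7 CPM dorsally (0.86, adjusted p of 0.00627 in limma). Acvr1, the type I receptor used by BMP6 and BMP7, rose by 0.93 (adjusted p of 0.0391 in limma), a call lost without female dorsal 2 or 3 or female ventral 2 or 3 (adjusted p up to 0.145). Bmpr1b, a further type I receptor, rose by 1.32 (adjusted p of 0.0367 in limma), from dorsal levels that rest on 33, 0 and 15 reads. Female dorsal 2 and 3 lay under the filter value of 1 for Bmpr1b, and the ventral libraries alone sufficed to pass the filter. Its female call is therefore a description and not a test. The Bmpr1b call was lost without the same 4 libraries and in edgeR (adjusted p up to 0.180). Acvr2a, a type II receptor, fell by 0.64 (adjusted p of 0.0461 in limma), a call lost in 7 of 9 alternatives, among them the pool block, the removal of the GC and length trend and the omission of any female library but dorsal 3 (adjusted p up to 0.149). In males the same 4 genes had no call, and over both sexes Bmpr1a alone was called (0.50, adjusted p of 0.0241 in limma), which was lost without female dorsal 2 or 3 or female ventral 2 or 3 (adjusted p up to 0.0618).

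Among the 9 intracellular transducers and inhibitors, Smad4, the SMAD shared with TGF-beta signalling, and Smurf2, a ubiquitin ligase that targets SMADs and receptors, were called higher ventrally in females. These 2 are 22.2% of the list, beside 27.8% of all genes called in either direction. Smad4 was at 51.8, 66.0 and 65.9 CPM ventrally and 30.2, 18.4 and 31.9 CPM dorsally, a change of 1.19 with an adjusted p of 0.00476 in limma. Smurf2 changed by 1.05 with an adjusted p of 0.00926 in limma. Both kept their call in the female and the joint fit under every alternative run for pathway genes.

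Of the 7 BMP target genes tested in females, none was called higher ventrally and 2 were called lower. This is 28.6% of the list, near the 27.8% of all genes called in either direction. Msx1, a homeobox factor that BMP4 is known to raise, was at 3.63, 0.253 and 1.14 CPM ventrally and 9.40, 5.80 and 7.71 CPM dorsally. The female groups did not overlap, and the change was -1.88 with a standard error of 0.46 and an adjusted p of 0.0156 in limma. Hey1, a repressor under Notch and BMP control, was at 10.3, 1.19 and 5.43 CPM ventrally and 13.8 to 25.5 CPM dorsally, a change of -1.74 with an adjusted p of 0.0362 in limma. The Hey1 call was lost in edgeR and without any 1 female library except ventral 1 (adjusted p up to 0.109), and the Msx1 call in edgeR and without female ventral 2 (adjusted p up to 0.0697). Over both sexes Hey1 (-1.297, adjusted p of 0.0156) and Msx1 (-1.24, adjusted p of 0.0273) were again called lower in limma. The joint Hey1 call was kept in all 16 alternatives, while that of Msx1 was lost in 6, in edgeR and without female dorsal 1, 2 or 3 or female ventral 2 or 3 (adjusted p up to 0.0976).

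The Id genes, the most direct readout of SMAD1, SMAD5 and SMAD9 at the RNA level, were not called by region. Their female changes went both ways, -0.22 for Id1, 0.50 for Id2, 0.39 for Id3 and -0.97 for Id4. The adjusted p values ran from 0.0815 to 0.517 in limma. Id1 was at 55.4, 61.1 and 62.0 CPM in female ventral and 54.2, 76.9 and 79.5 CPM in female dorsal libraries, which overlapped. In males it was at 82.4, 80.5, 155 and 158 CPM ventrally and 87.6, 96.5 and 165 CPM dorsally. Between the sexes Id1 was higher in males by 0.81 (adjusted p of 0.0142 in limma) and Id3 by 0.54 (adjusted p of 0.0304 in limma). Id4 was lower in males by 1.65 (adjusted p of 0.00706 in limma). Smad1 (-0.96), Smad4 (-0.97), Smurf2 (-0.72), Bmpr1a (-0.60) and the co-receptor Rgmb (-1.16) were also called lower in males, and Fstl3 (0.83) higher. In all 9 of 44 pathway genes were called by sex, 3 higher and 6 lower in males, or 20.5%, beside 10.9% of all genes. That fit counted the ventral and dorsal libraries of a pool as separate, although sex differs only between pools. With libraries of 1 pool averaged, the genes called between the sexes fell from 1726 to 944. The calls of the 9 pathway genes were not tested that way.

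**Figure D4:**
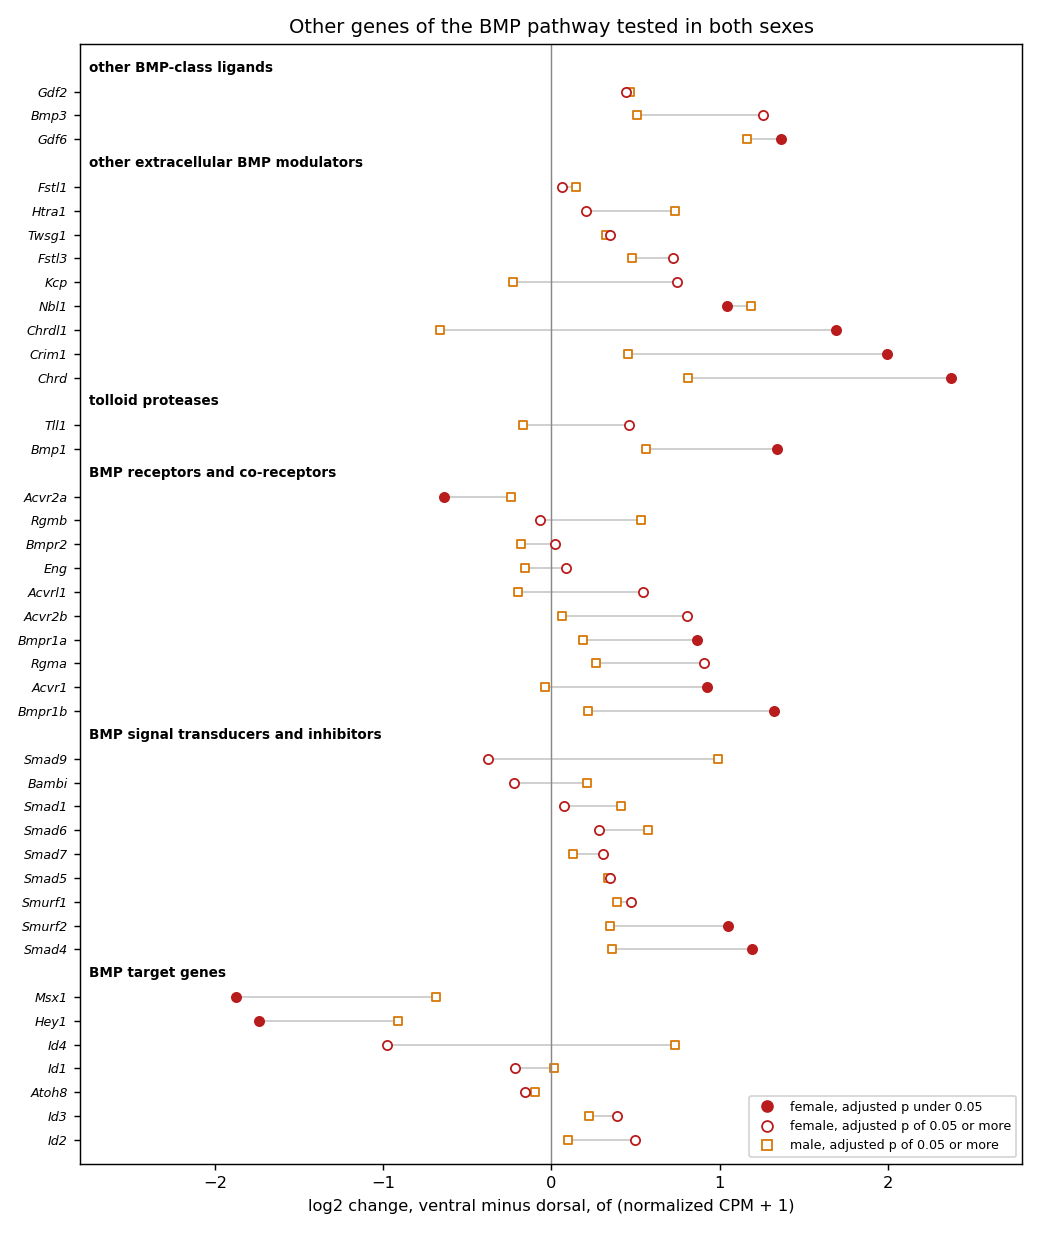
Log2 change between ventral and dorsal libraries of log2(normalized CPM + 1) for the pathway genes tested in both sexes (horizontal axis), listed by role; circles are the female and squares the male comparison, and filled circles have an adjusted p under 0.05 in limma. Crim1 (1.998) lies far to the right in females, and the targets Msx1 (-1.88) and Hey1 (-1.74) far to the left. Their male squares lie nearer to 0. Chrd and Bmp3 entered the female fit through their ventral libraries alone. For Gdf6 and Bmpr1b the ventral libraries alone sufficed, with some dorsal libraries under the filter value.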

How the data were processed

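RNA of 14 libraries was analysed. Per the labels and the study's methods, single reads of 60 bases were trimmed with Cutadapt, reads under 30 bases were discarded, and genes were quantified with RSEM (version 1.3.1 in the submitters' processing notes) on mouse GRCm38. Strand use is not given in the sources used here. The deposited signal of each gene is a normalized CPM made by the authors: reads plus 0.5, divided by the effective library size. Whole reads were recovered from these steps for 100% of the values, within 0.02 of a read, and gave depths of 13.9 to 25.2 M reads per library. No column lacked a sample (0).

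Of 15894 genes listed, those with at least 1 in at least 3 libraries of a fit were tested with limma 3.58.1 (R 4.3.3, empirical Bayes with trend) on log2(value + 1), with Benjamini-Hochberg adjustment over all genes tested. In the joint fits sex or region was a covariate. edgeR 4.0.16 (quasi-likelihood) on the recovered reads was an alternative, as were other pseudocounts, filters, scalings, voom, removal of a GC and length trend, each library left out, and the pool number as a block. Libraries of the same pool deviated together from their group means (correlations 0.187, 0.169 and 0.270 in females and 0.427, 0.175 and 0.351 in males, over 15772 genes), so the number was taken to pair them. The blocked male fit leaves ventral 7 without a partner. The fits were tested on simulated data. The simulation used the same spread for all genes and no pool effect, so it does not test how the pairing bears on the p-values. The labels say that pools came from different hearts. The main fits held no pool term and took the libraries as independent, so their p-values measure the spread between libraries within groups. The pairing entered only the fits with the pool as a block and the fit with libraries of 1 pool averaged.

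The 9 genes and all lists were chosen with earlier results of these data known. Of the pathway lists, genes called in any of the 5 comparisons were named. Of the marker lists, only defining genes were named. Positions and exon lengths are from GENCODE M21 (99.9% of the IDs matched) and promoters from RefSeq.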

Additional observations from a re-analysis of the deposited data

Results flagged for a closer look

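The regional change of Crim1 differed between the sexes by -1.54 on the log2 scale in the test of that difference itself, with an adjusted p of 0.0187 in limma. It was 1.998 in females and 0.46 in males. The call was lost without female dorsal 2, female ventral 2 or female ventral 3. Crim1 was 1 of 44 pathway genes called for this difference (2.27%), beside 2.73% of all genes. Sex cannot be told apart from the pool series here.

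The library of unsettled region lies outside the main comparisons. It held 96.6 CPM of Bmp4, 48.8 CPM of Bmp7, 17.5 CPM of Bmp6, 5.19 CPM of Bmp5, 4.96 CPM of Bmper and 3.61 CPM of Bmp2, each above the limit that a count of 0 allows. No member had a male ventral library that stood apart from the other 3 by Dixon's criterion; the groups of 3 were not examined this way.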

How the results depend on the processing

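Over 30 results (6 genes, 5 comparisons) 687 alternative values were computed, of which 624 kept direction and side of the threshold, 23 lost a call, 4 gained one and 36 in 9 results changed sign. The lost calls were the 12 of Bmp5 in females and the 11 of Bmp4 over both sexes. Those of Bmp4 included eBayes without trend (adjusted p 0.0616) and voom (0.0751). Every result that changed sign was uncalled. The cause was not tested.

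With libraries left out in turn, the Bmp2 change ranged from -1.24 to 0.80 in females and from -0.0935 to 0.75 over both sexes, and that of Bmper from -0.97 to 0.36 and from -0.12 to 0.43. The sex difference of the change ranged from -0.10 to 1.94 for Bmp2, -0.0835 to 0.41 for Bmp5 and -0.29 to 0.10 for Bmp7. The difference between males and females ranged from -0.43 to 0.41 for Bmp2 and from -0.14 to 0.26 for Bmp6. Genes called ranged from 2158 (without female ventral 2) to 3845 in females, from 0 to 12 (without male dorsal 6) in males, from 1429 (without female dorsal 2) to 3646 over both sexes, and from 260 (without female dorsal 2) to 447 for the sex difference.

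Quantile normalization gave -0.0173 for Bmp2 and -0.0160 for Bmper over both sexes and -0.0166 for Bmp6 between the sexes. edgeR gave -0.30 for Bmp2 over both sexes. Removal of the GC and length trend gave -0.0111 for the sex difference of the Bmp5 change and -0.13 for Bmp6 between males and females, where voom gave -0.22. eBayes without trend called 1 gene in males.

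The replicate block turned the sex difference of the change to -0.0567 for Bmp5 and 0.102 for Bmp7. With the GC and length trend also removed it was -0.22 and 0.15, and with edgeR -0.0918 and 0.104. It called 1 of 6 members, Bmp6, for that difference, as did the block with the trend removed (1). Genes called under the block were 76 in males and 804 for the sex difference. They were 38 and 788 with the trend removed, and 1274 over both sexes with edgeR. Averaging libraries of 1 pool gave 944 genes between the sexes. The block changed no other call of a member.

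Shallow counts limit Bmp2 most, with 9 reads at the lowest.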
